A study of Mus musculus with 2 samples.

Results

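The genes of MHC class II antigen presentation were followed in total RNA from mouse liver. They were chosen by name, as genes known to act in this pathway, by matching their symbols to the identifiers in both gene tables, and all 7 were found among the 43346 mouse genes of the deposited tables. They are the classical chain genes H2-Aa, H2-Ab1 and H2-Eb1, the peptide exchange genes H2-DMa and H2-DMb1, the invariant chain gene Cd74 and the coactivator gene Ciita. The livers were of adult C57BL/6J mice aged 8 weeks with no treatment named. RNA longer than 200 nucleotides gave 2 libraries, numbered as biological replicates 1 and 2, which form 1 group. The labels give the libraries separate biosamples but 1 donor identifier, leave the sex and health state unstated, and do not say that the tissue came from separate animals, so the spread between libraries may be technical in part or in whole. With 1 group there is no test between conditions. The libraries held 83816487 and 71068191 expected counts over mouse genes, the deposited estimates of fragments per gene. Replicate 2 stood apart in holding H2-Ea-ps, a class II gene known to be null in C57BL/6 mice, and genes typical of the adrenal gland, with values given further on.

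MHC class II molecules are pairs of an alpha and a beta chain that carry peptides from the endosomes to the surface of antigen presenting cells, where CD4+ T cells read them. The invariant chain, encoded by Cd74, fills the groove of new molecules and guides them to endosomes, where proteases cut it down and the H2-DM heterodimer swaps the remnant for an antigen peptide. Ciita switches the group on: it binds no DNA itself and joins the RFX, NF-Y and CREB factors that sit on the X and Y boxes of class II promoters. In liver these genes are best known from dendritic cells, B cells, Kupffer cells and sinusoidal endothelium, whereas resting hepatocytes express them little.

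The class II genes took a small share of liver RNA, in a fixed order from Cd74 down to Ciita, and all 7 were higher in replicate 2 than in replicate 1. Levels are endogenous TPM, the deposited values (transcripts per 1000000) rescaled without spike-ins, so that a level is per length and a share of the library. Summed over the 7 genes, the level was 26.1 ± 18.5 TPM (SD, n = 2), with 13.0 in replicate 1 and 39.2 in replicate 2. By deposited TPM, 93.0% of the 7702 genes with a mean of 1 TPM and 10 counts or more were also higher in replicate 2. By the log2 ratio of scaled counts used below, 44.5% of these genes were higher. In bulk tissue, fewer cells of a type and less RNA per cell cannot be told apart. By counts, the 7 genes took 0.00495% of replicate 1, with an exact Clopper-Pearson 95% interval of 0.00480% to 0.00510%, and 0.0115% of replicate 2, with an interval of 0.0113% to 0.0118%. These intervals and those below cover counting error only. The tissue, labelled as liver, carried a hepatocyte signature, since the hepatocyte markers Alb, Apoa1, Ttr, Ahsg, Serpina3k and Cps1 summed to 11271 and 17254 TPM.

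Cd74, the invariant chain gene (ENSMUSG00000024610.10, chromosome 18, 60803848 to 60812652, plus strand, mm10), was the highest of the group. It stood at 4.23 TPM in replicate 1 and 16.0 TPM in replicate 2, from 1433 and 3485 counts. With TPM taken over protein-coding genes alone, Cd74 stood at 34.7 and 98.0. Of the 43346 mouse genes, 1672 had a higher mean level than Cd74, 2433 than H2-Aa and 12872 than Ciita. Cd74 was thus well up the list of genes despite its small share. Cd74 made up 32.5% of the summed level of the 7 genes in replicate 1 and 40.9% in replicate 2.

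The alpha chain gene H2-Aa (ENSMUSG00000036594.10, chromosome 17, 34282744 to 34287823, minus strand) followed at 3.59 and 8.77 TPM, from 1021 and 1628 counts. Its partner H2-Ab1 (ENSMUSG00000073421.5, chromosome 17, 34257689 to 34269419, plus strand), the beta chain of the I-A molecule, stood at 2.52 and 7.60 TPM, from 777 and 1535 counts. H2-Eb1 (ENSMUSG00000060586.10, chromosome 17, 34305867 to 34316674, plus strand), the beta chain of the I-E molecule, stood at 1.87 and 4.89 TPM, from 572 and 968 counts. With Cd74, these chains were the 4 genes that reached 1 TPM in each library, and they held 93.8% and 95.2% of the summed level.

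The peptide exchange genes lay under 1 TPM on this scale. H2-DMb1 (ENSMUSG00000079547.3, chromosome 17, 34153072 to 34160230, plus strand) stood at 0.452 and 0.984 TPM, from 150.8 and 193.0 counts. H2-DMa (ENSMUSG00000037649.9, chromosome 17, 34119541 to 34139101, plus strand) stood at 0.301 and 0.723 TPM, from 103 and 198 counts. With TPM taken over protein-coding genes alone, H2-DMb1 stood at 3.70 and 6.02 and H2-DMa at 2.47 and 4.42, and the mean sum of the 7 genes was 173. The coactivator gene Ciita (ENSMUSG00000022504.9, chromosome 16, 10480059 to 10528418, plus strand) was the lowest at 0.0602 and 0.181 TPM, though its long transcript still gave 92 and 188 counts.

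The order of the 7 genes by level was the same in both libraries. Neighbours in that order often overlapped across libraries: the ranges of Cd74, H2-Aa, H2-Ab1 and H2-Eb1 overlapped one another, and so did those of H2-DMb1 and H2-DMa. The lower library of H2-Eb1 lay above the higher library of H2-DMb1, and that of H2-DMa above the higher library of Ciita, so the chains, the exchange factor and the coactivator formed separate tiers. MHC class I stood far higher, with H2-K1, a class I heavy chain, at 162 and 196 TPM and its light chain B2m at 176 and 195 TPM.

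**Figure D1:**
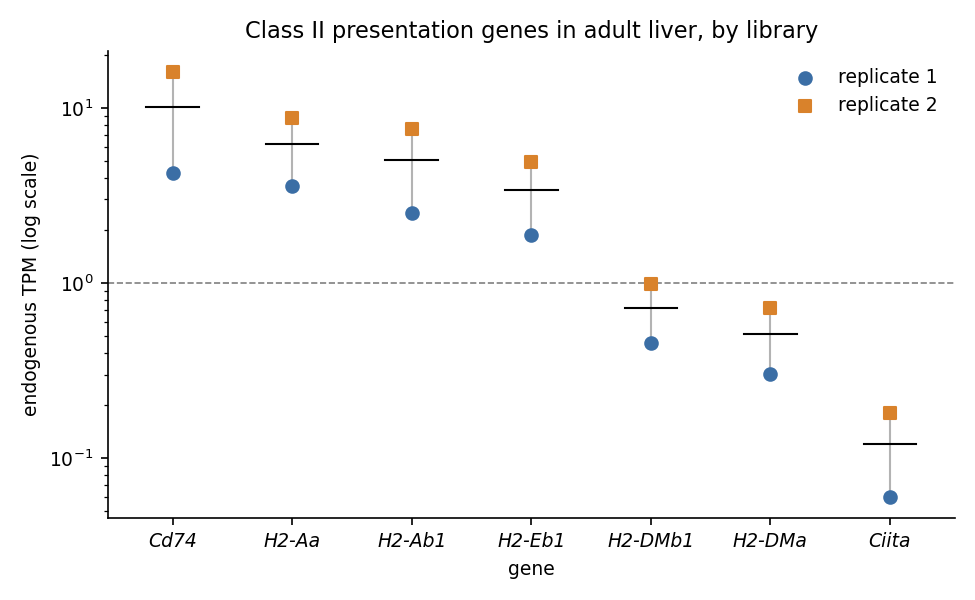
Endogenous TPM of the 7 class II genes on a log axis, with a circle for replicate 1, a square for replicate 2, a bar at their mean and a dashed line at 1 TPM. All 7 genes are higher in replicate 2, and Cd74, H2-Aa, H2-Ab1 and H2-Eb1 lie above 1 TPM in both libraries. By deposited TPM, 93.0% of the 7702 genes with a mean of 1 TPM and 10 counts or more are also higher in replicate 2.

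Ratios between genes inside a library do not depend on how libraries are scaled. The alpha to beta ratio of the I-A molecule, H2-Aa over H2-Ab1, was 1.43 in replicate 1 and 1.15 in replicate 2. H2-Aa over H2-Eb1 was 1.92 and 1.79. The sum of both beta chain genes exceeded the single alpha chain gene in each library, with H2-Aa at 0.819 and 0.702 of that sum. The ratio of the classical alpha chain to the exchange alpha chain, H2-Aa over H2-DMa, was nearly equal at 11.9 and 12.1. Within the exchange heterodimer, H2-DMa over H2-DMb1 was 0.667 and 0.735. Cd74, which had the largest TPM ratio between libraries of the 7, went from 1.18 times H2-Aa in replicate 1 to 1.83 times in replicate 2. Cd74 over its coactivator Ciita was 70.2 and 88.7. By contrast, H2-K1 over H2-Aa was 45.1 in replicate 1 and 22.4 in replicate 2, so class I and class II did not keep their proportion.

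The promoters of these genes are shown because class II genes are controlled as a group through a shared X and Y box layout. Sequences are from RefSeq (GRCm38.p6, the assembly also called mm10), in windows of 300 bases from 250 before to 50 after a gene start, and 4 of the 7 genes matched the table: H2-Aa, H2-Eb1, H2-DMa and H2-DMb1. The Y box was searched as ATTGG on both strands, and the X box core as AGNNAC, followed on the same strand after 15 to 30 bases by ATTGG, a search that contains that for ATTGG. Of 32851 promoters, 37.4% held ATTGG on either strand and 3.02% held the X core and Y box pair. All 4 matched genes held ATTGG, H2-DMa only in the window of a second start, and 2 of them, H2-Eb1 and H2-DMb1, held the pair. The first H2-DMa window held no ATTGG on either strand. In the window of its second start, ATTGG began 198 bases before that start. A match is only a match of letters, and a lack of one does not show that a box is absent. The H2-Aa window holds ggcaac before its Y box, which differs from the AGNNAC searched only in its first letter. In the windows below, read 5′ to 3′ along the gene, capitals mark the Y box and, where found, the X core. H2-Eb1 lies at chr17:34305763-34305824 (plus strand), H2-Aa at chr17:34287855-34287916 (minus strand), H2-Ob at chr17:34238803-34238864 (plus strand) and H2-Eb2 at chr17:34325530-34325591 (plus strand). H2-Ob and H2-Eb2 are class II genes of low level here.
H2-Eb1: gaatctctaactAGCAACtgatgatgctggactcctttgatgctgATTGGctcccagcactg
H2-Aa: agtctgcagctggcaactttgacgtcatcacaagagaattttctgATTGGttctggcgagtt
H2-Ob: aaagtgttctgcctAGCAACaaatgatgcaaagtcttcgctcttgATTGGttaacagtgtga
H2-Eb2: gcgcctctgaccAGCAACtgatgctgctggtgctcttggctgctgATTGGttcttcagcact

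The Y box began 59 bases before the gene start in H2-Eb1, 48 in H2-Aa, 57 in H2-Ob and 100 in H2-Eb2. The gap from the X core to the Y box was 27 bases in H2-Eb1 and H2-Eb2, 25 in H2-Ob and 28 in H2-DMb1. Genes with a like layout differed in level: H2-Eb1 reached 1.87 and 4.89 TPM, whereas H2-Eb2, a second I-E beta chain gene with the same X core letters and the same gap, stood at 0.0100 and 0.0201 TPM from 6 and 9 counts.

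All 7 class II genes had a higher share of the library in replicate 2. The fold is replicate 2 over replicate 1 of expected counts over TMM-scaled library sizes; TMM, the trimmed mean of M values, sets the bulk of genes equal. Cd74 was 2.59-fold higher in replicate 2 (95% interval 2.43 to 2.75). H2-Ab1 was 2.10-fold higher (1.93 to 2.29), H2-Eb1 1.80-fold (1.62 to 2.00) and H2-Aa 1.70-fold (1.57 to 1.84). Ciita was 2.17-fold higher (1.68 to 2.82) and H2-DMa 2.04-fold (1.60 to 2.62). The smallest fold was that of H2-DMb1 at 1.36 (1.09 to 1.69). No interval of the 7 reached 1, but each compares only these libraries.

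For the count across genes, 0.5 CPM (counts per 1000000) was added to both values before the log2 ratio was taken, which understates low genes. Among the 7702 genes with a mean of 1 TPM and 10 counts or more, 2.36% lay over 2-fold apart in either direction and 0.792% were over 2-fold higher in replicate 2. Of the 7 class II genes, 4 passed that filter and 2 were over 2-fold higher, Cd74 at a log2 ratio of 1.35 and H2-Ab1 at 1.03. H2-Eb1 stood at 0.81 and H2-Aa at 0.74, against a median of -0.04 over the 7702 genes. There were 25 genes of the 7702 with a higher ratio than Cd74, 55 above H2-Ab1, 113 above H2-Eb1 and 143 above H2-Aa. Without the added value, all 7 genes fell among the 11582 genes with a mean count of 100 or more, of which 1.66% were over 2-fold higher in replicate 2. There 4 of the 7 were over 2-fold higher: Cd74, Ciita, H2-Ab1 and H2-DMa. The median log2 ratio of the 7 was 0.81 with the added value and 1.03 without it.

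**Figure D2:**
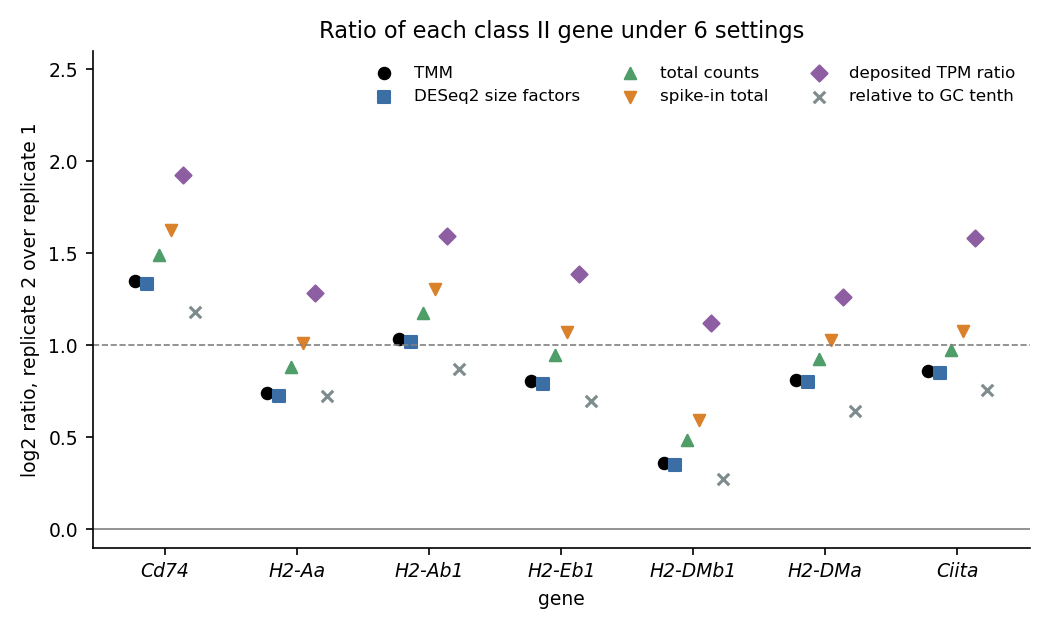
Log2 ratio of each class II gene, replicate 2 over replicate 1, with 0.5 CPM added under TMM, DESeq2 size factors, total counts and the spike-in total, as the ratio of deposited TPM, and under TMM relative to genes of like GC content; the dashed line is 2-fold. Every point lies above 0, from 0.27 for H2-DMb1 to 1.92 for Cd74. By deposited TPM, 93.0% of the 7702 genes with a mean of 1 TPM and 10 counts or more also had a ratio above 0.

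How many of the 7 genes lay past 2-fold depended on the scaling, while all 7 stayed higher in replicate 2 under each scaling run. The deposited TPM ratio had a median log2 value of 0.51 over the 7702 genes. By it 93.0% of them were higher in replicate 2 and 8.21% were over 2-fold higher. All 7 class II genes lay past 2-fold by that ratio, from 1.12 for H2-DMb1 to 1.92 for Cd74, and 4 of them passed the filter. Genes slightly lower in replicate 2 under TMM can therefore be higher by TPM, such as Lgmn at -0.02 and 0.49, and what follows compares each gene with most others under TMM. The class II genes had a GC content between 50.5% and 57.4%. The bins of genes with like GC content that hold them had median log2 ratios between 0.02 and 0.16. The bin of B2m had a median of -0.23 and that of C1qa 0.23. Folds of the other genes below were not adjusted for GC content.

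Other genes of the pathway did not share 1 direction. Of 22 such genes, 13 were higher and 9 lower in replicate 2, and their median log2 ratio was 0.07. H2-Ea-ps was the 1 gene of the 22 over 2-fold apart with 0.5 CPM added. Of the 7702 genes, 44.5% were higher and 2.36% over 2-fold apart. Among the 22, 10 passed the filter of the 7702 genes, and H2-Ea-ps did not. Among the endosomal proteases, which cut the invariant chain and antigens, Ctss (cathepsin S) had 3043 and 2115 counts, 0.739-fold (0.699 to 0.782), and Ctsl 0.885-fold (0.870 to 0.899). Ctsb was 1.35-fold higher (1.33 to 1.38) and Ctsd 1.05-fold (1.02 to 1.07). Lgmn (legumain) stood at 0.984-fold (0.938 to 1.03), and Ifi30, which reduces disulphide bonds in antigens, at 0.763-fold (0.591 to 0.982). By endogenous TPM, Ctsl stood at 56.8 and 73.6 and Ctsd at 32.6 and 49.2, above every class II gene in each library. Ctss, at 8.44 and 9.11 TPM, was above Cd74 in replicate 1 and below it in replicate 2.

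The DNA-binding partners of Ciita lay between 0.837-fold and 1.18-fold. The RFX genes Rfx5, Rfxap and Rfxank were at 1.04-fold, 0.907-fold and 0.837-fold. The NF-Y genes Nfya, Nfyb and Nfyc were at 1.18-fold, 0.997-fold and 1.16-fold, and Creb1 at 0.927-fold. March1, a ubiquitin ligase that removes class II from the surface, stood at 0.820-fold. The costimulatory genes Cd86, Cd80 and Cd40 were at 1.17-fold, 1.71-fold and 1.12-fold, and the intervals of all 3 included 1.

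The remaining class II genes had few counts. H2-DMb2, the neighbouring copy of H2-DMb1, had 31.2 and 55.0 counts, a fold of 1.88 (1.19 to 3.03). The copies share sequence, and the posterior SD of the count was 0.650% and 0.871% for H2-DMb1 and 3.14% and 3.05% for H2-DMb2. H2-Oa and H2-Ob encode the chains of H2-O, which holds H2-DM in check in B cells. H2-Oa had 8 and 12 counts, 1.60-fold (0.600 to 4.50), and H2-Ob 61 and 64, 1.12-fold (0.773 to 1.61). Both intervals include 1. By endogenous TPM, H2-Ob was lower in replicate 2, at 0.171 and 0.131. H2-Ea-ps is the alpha chain gene of I-E, annotated as a polymorphic pseudogene, and C57BL/6 mice are known to carry a null allele of it, which leaves the H2-Eb1 chain without its partner. H2-Ea-ps had 0 counts in replicate 1 and 52 in replicate 2, at least 18.4-fold higher against a floor of 3 counts per library. A null allele is known for the labelled strain, but where the counts of replicate 2 lie within the gene was not examined. Their source was not tested.

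**Figure D3:**
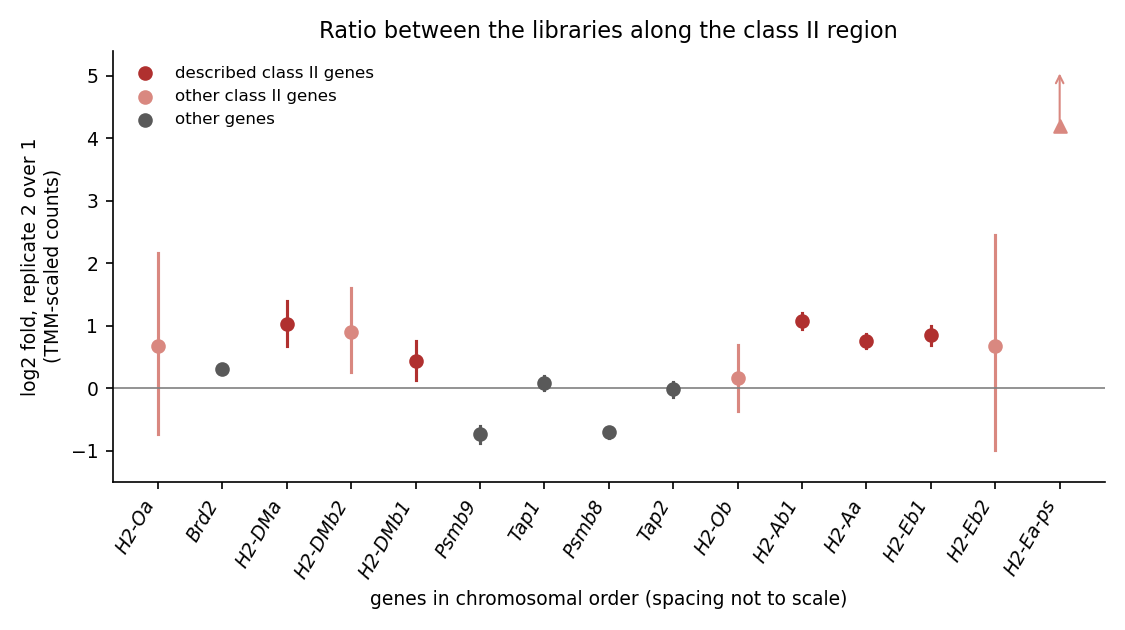
Log2 fold of TMM-scaled counts, replicate 2 over replicate 1, with exact 95% counting intervals, for 15 genes of the class II region on chromosome 17 in chromosomal order. The triangle with an arrow is H2-Ea-ps, drawn without an interval at its fold with replicate 1 set to a floor of 3 counts. Psmb9 and Psmb8 lie below 0 between class II genes that lie above it.

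Neighbours in the class II region did not share 1 direction. Between H2-DMb1 and H2-Ob lie 4 class I processing genes. The immunoproteasome genes Psmb9 and Psmb8 were lower in replicate 2 under TMM, at 0.600-fold (0.546 to 0.658) and 0.614-fold (0.576 to 0.653). The peptide transporter genes Tap1 and Tap2 were at 1.06-fold (0.981 to 1.15) and 0.989-fold (0.912 to 1.07). Brd2, a chromatin reader gene that overlaps H2-DMa on the opposite strand, had 2694 and 3135 counts and was at 1.24-fold (1.17 to 1.30). Whether the counting used strand is not stated, so the 103 and 198 counts of H2-DMa carry that uncertainty. Class I genes themselves stood at 0.831-fold for H2-K1, 0.835-fold for H2-D1 and 0.764-fold for B2m.

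Markers of B lineage cells were higher in replicate 2 along with the class II genes. All 10 B cell markers were higher in replicate 2, with 332 and 665 counts in sum, 2.13-fold (1.86 to 2.44), beside 2.10-fold (2.02 to 2.18) for the sum of the 7 class II genes. Their summed level was 0.673 TPM in replicate 1 and 2.07 TPM in replicate 2, and none was at 0. The class II sum was 19.4 times the B cell sum in replicate 1 and 18.9 times in replicate 2. Cd79b, part of the B cell receptor, had 74 and 143 counts, 2.05-fold (1.54 to 2.76), and Ms4a1 (CD20) 69 and 141. Cd22 was at 1.60-fold (1.13 to 2.26) and Cd37 at 1.28-fold (0.906 to 1.80), an interval that includes 1. Only 2 of the 10 markers had a mean count of 100 or more. None of the 10 was among the 7702 genes, of which 44.5% were higher under TMM. Of 8 plasma cell markers, 6 were higher, 1 lower and 1, Tnfrsf17, at 0 in both libraries; the list summed to 34.6 and 82.2 TPM, mostly from Sdc1 and Xbp1, which hepatocytes also express. The IgA heavy chain gene Igha had 59 and 525 counts and the kappa light chain gene Igkc 37 and 210. The part of these cells in the class II ratio was not tested.

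Markers of other antigen presenting cells had count sums between 0.819-fold and 1.06-fold. Of 12 dendritic cell markers, 9 were higher and 3 lower in replicate 2, the sum of counts was 1.06-fold (0.989 to 1.13) and the sum of levels 1.93 and 3.19 TPM, with none at 0. The median log2 ratio of these 12 was 0.18 with 0.5 CPM added and 0.37 without it. Irf8, the highest of them by level, was at 1.16-fold (1.03 to 1.31). Zbtb46 and Clec9a, markers of conventional dendritic cells, were at 0.911-fold (0.813 to 1.02) and 0.967-fold (0.811 to 1.15). Xcr1, with 26 and 47 counts, was at 1.92-fold (1.17 to 3.23). Of 12 Kupffer cell or macrophage markers, 4 were higher and 8 lower, and the sum was 0.819-fold (0.806 to 0.831) by counts and 77.6 and 90.4 TPM by level. The highest 3 of the list, Cd5l, Clec4f and the complement gene C1qc, stood at 0.784-fold, 0.685-fold and 0.870-fold. Others lay further out in both directions, with Cd163, a haemoglobin scavenger receptor, at 0.369-fold, the scavenger receptor gene Marco at 1.45-fold (1.26 to 1.68) and the growth factor receptor gene Csf1r at 1.20-fold (1.15 to 1.26). The 8 sinusoidal endothelial markers, 3 higher and 5 lower, summed to 45.8 and 61.0 TPM and to 0.948-fold (0.935 to 0.962) by counts, with Lyve1 alone over 2-fold higher at 2.41-fold. The class II sum went from 0.168 to 0.434 of the Kupffer cell sum and from 6.76 to 12.3 times the dendritic cell sum. By TPM the sums of these 3 lists were higher in replicate 2. By counts, the T or NK cell list stood at 0.703-fold, cholangiocytes at 0.686-fold, monocytes or neutrophils at 0.820-fold and hepatic stellate cells at 1.11-fold.

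**Figure D4:**
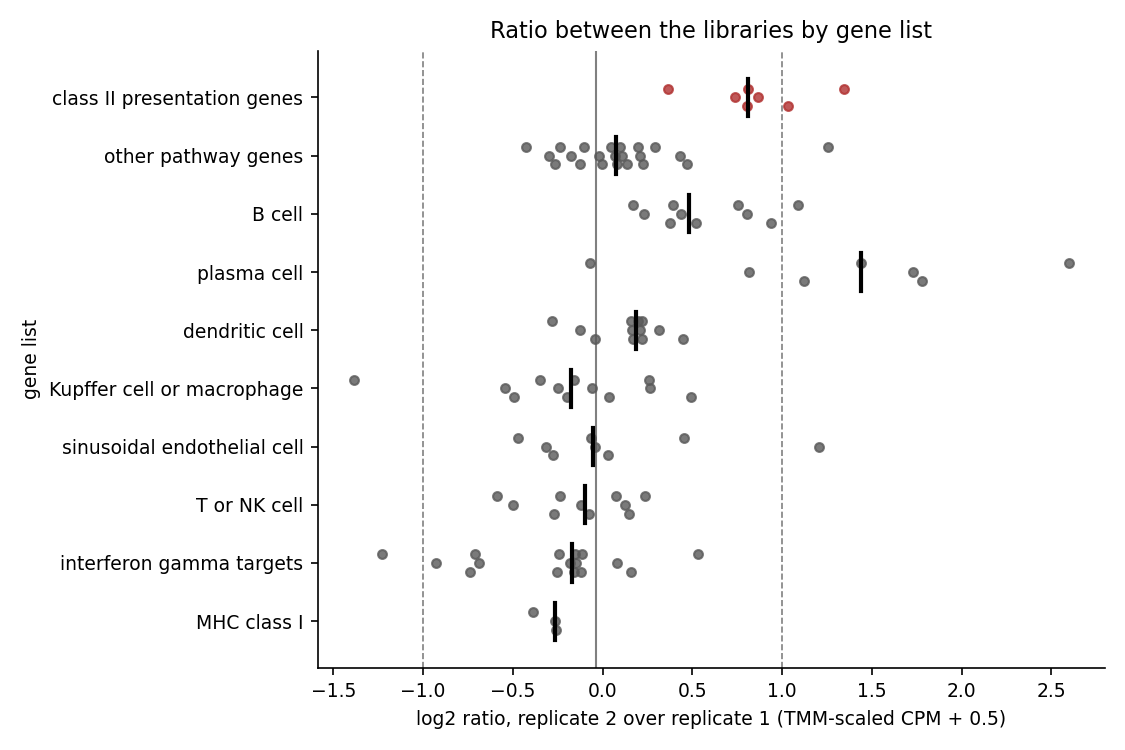
Log2 ratio, replicate 2 over replicate 1, of every measured gene in 10 lists, with 0.5 CPM added under TMM; bars are list medians, the solid line is the median of all 7702 genes and dashed lines mark 2-fold. All class II and all B cell genes lie right of 0, as do 44.5% of the 7702 genes, while the MHC class I genes lie left of it. H2-Ea-ps, at 0 in replicate 1, is drawn at its value with 0.5 CPM added.

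Interferon gamma is a known inducer of Ciita, and its part in the class II ratio was not tested. Of 16 other targets matched, 3 were higher and 13 lower in replicate 2 under TMM. Of the 7702 genes, 44.5% were higher. The median log2 ratio of the 16 was -0.17 and the sum of counts 0.640-fold (0.632 to 0.649). Iigp1, a GTPase against intracellular pathogens, had 34553 and 17043 of the 61738 and 37172 counts of the list. Gbp3 had 1945 and 758 counts. Cxcl10 went the other way, with 43 and 75 counts, 1.85-fold (1.26 to 2.76). By endogenous TPM the list summed to 88.8 and 85.6.

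The libraries also differed in genes of neighbouring organs. The steroid synthesis genes Cyp11b1, Cyp21a1, Star and Hsd3b1, typical of the adrenal gland, summed to 0.181 TPM in replicate 1 and 12.9 TPM in replicate 2. The pancreatic enzyme genes Cela2a, Try4, Cpb1, Pnlip and Cel summed to 84.4 and 27.3 TPM. Both lists were drawn up with these values known, and their part in the class II ratio was not tested.

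Transcript shares, the deposited percent of each transcript in the level of its gene, were led by 1 transcript in the main chains. The leading transcript of H2-Aa, 1132 nucleotides long, held 95.95% and 98.3% of its gene, and that of H2-Ab1, of 1211 nucleotides, 96.3% and 99.1%. H2-Eb1 and Ciita had 1 model each in the table. The M21 annotation lists 8 Ciita models with starts between 10480059 and 10489783, of which the table holds the one that starts at 10488279, so the use of the separate Ciita promoters could not be read. The opposite-strand gene Dexi shares 111 exonic bases with that model; it had 349 and 435 counts.

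Cd74 was spread over 2 main transcripts. The shorter, of 1218 nucleotides, held 63.5% in replicate 1 and 66.3% in replicate 2, or 64.9% ± 1.96 (SD, n = 2). The longer, of 1410 nucleotides, held 35.5% and 31.8%, or 33.7% ± 2.57. The longer one carries an additional exon of 192 bases at 60811294 to 60811485 on chromosome 18; the long form of the invariant chain is known for an added thyroglobulin type domain. The remaining coding transcript held 1.02% and 1.88%.

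The shares of the exchange genes rest on few counts. The coding transcript of H2-DMa held 70.9% in replicate 1 and 100% in replicate 2, the rest of replicate 1 being 12.2 counts of a retained intron. For H2-DMb1, the coding transcript held 82.95% and 67.8%, and a processed transcript without a coding frame 17.1% and 32.2%, from 11.5 and 31.4 counts.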

How the data were processed

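The authors quantified each library on its own against mm10 and GENCODE M4, per the deposited notes; which aligner and quantifier were used is not given in the sources used here. Expected counts, as deposited, are unnormalised estimates, the deposited TPM values are scaled to 1000000 with spike-ins included, and the deposited FPKM values served as an alternative unit. Transcript shares are a deposited percent, and the posterior SD of a count is a deposited score. Symbols and coordinates came from GENCODE M21, which named 42462 of 43346 gene identifiers; "H2-Ea", "Marchf1", "Gbp5" and "Gbp6" had no match by symbol. Expected counts were rounded for edgeR 4.0.16 (TMM factors 0.950 and 1.05) and DESeq2 1.42.0 (size factors) in R 4.3.3; other values used Python 3.11.15 and scipy 1.17.1. Intervals are exact binomial intervals of the share of counts in replicate 2. The 2-fold count was tested on simulated data. Alternatives were other scalings, pseudocounts, filters and units and leaving out a library. Members and lists were chosen with earlier results of these data known. The rule for naming genes takes all 7 members, the other pathway genes and the highest 3 markers of each list, some of them shown; markers outside the highest 3 and the genes of the class II region were named after their values were seen, as were the adrenal and pancreatic lists. With 2 libraries, no likeness of patterns could be measured.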

Additional observations from a re-analysis of the deposited data

How the results depend on the processing

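The direction of all 7 ratios held under every alternative run, in 49 of 49 values from the same 2 libraries. Of these values, 16 moved by more than counting error and the lowest was 0.27. Some alternatives moved most genes the same way. Of the 7702 genes, 64.5% were higher in replicate 2 with total counts, 79.1% with the spike-in total and 93.0% by deposited TPM. With DESeq2 size factors, 42.9% were higher. The median log2 ratio of the class II genes, 0.81, was 0.80 with DESeq2 size factors, 0.95 with total counts, 1.07 with the spike-in total, 1.39 by deposited TPM, 0.98 with 0.1 CPM added and 0.92 over the 4 genes past the filter. It was 1.03 with no pseudocount and 0.72 relative to genes of like GC content, both chosen after seeing the data. The share of all genes over 2-fold apart, 2.36%, was 9.34% by deposited TPM. The summed level was 79.1 in FPKM and 173 in TPM over protein-coding genes, and 13.0 to 39.2 with a library left out. Class II genes at 1 TPM in both libraries, 4 of 7, also numbered 4 with either library left out, 6 at 0.1 TPM or with TPM over protein-coding genes, and 7 at 10 counts. No paired analysis was possible because both libraries belong to 1 group. Ratios rest on single libraries and have no replicate check; Ciita, H2-DMa and H2-DMb1 rest on 92 to 198 counts.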
